A study of Sus scrofa with 2 samples.

Results

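Nuclei that expressed genes of motile cilia were examined in single-nucleus RNA sequencing of the olfactory mucosa of newborn pigs. Nuclei were chosen by their measured counts: a nucleus was taken when it held at least 1000 transcripts and transcripts of at least 5 of 9 genes, namely DNAH5, DNAH9, DNAH3, DNAH12, CFAP43, SPAG17, HYDIN, RSPH1 and CDHR3. Of 9034 nuclei of that depth, 1261 met the rule, 758 of 4705 in the CFTR knockout library and 503 of 4329 in the wild type library. The working name of these nuclei was respiratory ciliated cells, and the markers given for that name were DNAH5, DNAH9, SPAG17, HYDIN, WDR49 and DTHD1.

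The knockout library came from a newborn piglet that lacked CFTR, the epithelial chloride channel that is mutated in cystic fibrosis, and the other library from a newborn wild type piglet. Both started from dissected olfactory neuroepithelium that was frozen, sectioned and ground to release nuclei, which were then captured in droplets. Transcripts were counted by unique molecular identifiers (UMIs), and levels are given as CPM, the part of a class's UMIs that a gene took, scaled to 1e6. Median depth was 2138 UMIs over the 6054 nuclei of the knockout library, against 3032 UMIs over the 4715 nuclei of the wild type library. With 1 library per genotype there was no replicate check, and genotype, piglet and the piece of tissue dissected cannot be told apart. All intervals below are 95% intervals that cover counting error only. CPM values are not corrected for gene length, so levels were compared between nuclei and not between genes.

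Motile cilia are built on a ring of doublet microtubules around a central pair, and they bend when dynein motors in the outer and inner arms slide the doublets. Multiciliated cells of the respiratory epithelium carry many such cilia, whose beat clears mucus, and they form them after a programme run by MCIDAS, FOXJ1 and RFX factors has multiplied their centrioles. Olfactory neurons also carry cilia, which hold the odorant receptors, share part of this gene set and in mammals are thought not to beat actively.

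The 1261 nuclei were of more than 1 kind. WDR49 and DTHD1, the 2 name markers that the rule did not use, separated them, as did 15 markers of olfactory neurons. Nuclei with at least 2 UMIs of WDR49 and DTHD1 together and fewer than 5 neuron markers are called ciliated-marker nuclei, and there were 456 in the knockout library and 35 in the wild type library. Nuclei with fewer than 2 such UMIs and at least 5 neuron markers are called neuron-marker nuclei, and there were 242 in the knockout library and 459 in the wild type library. A further 34 knockout and 4 wild type nuclei reached both thresholds and are called mixed. Another 26 knockout and 5 wild type nuclei reached neither threshold, with a median of 4 neuron markers in each library. The ciliated-marker nuclei were thus 60.2% of the knockout nuclei that met the rule (56.6 to 63.7%) and 6.96% of the wild type ones (4.89 to 9.54%). Neuron-marker nuclei were 31.9% in the knockout library (28.6 to 35.4%) and 91.3% in the wild type library (88.4 to 93.6%). The name of respiratory ciliated cells therefore fitted the markers of most knockout nuclei and of few wild type nuclei that met the rule. The classes were drawn after the data had been seen.

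**Figure D1:**
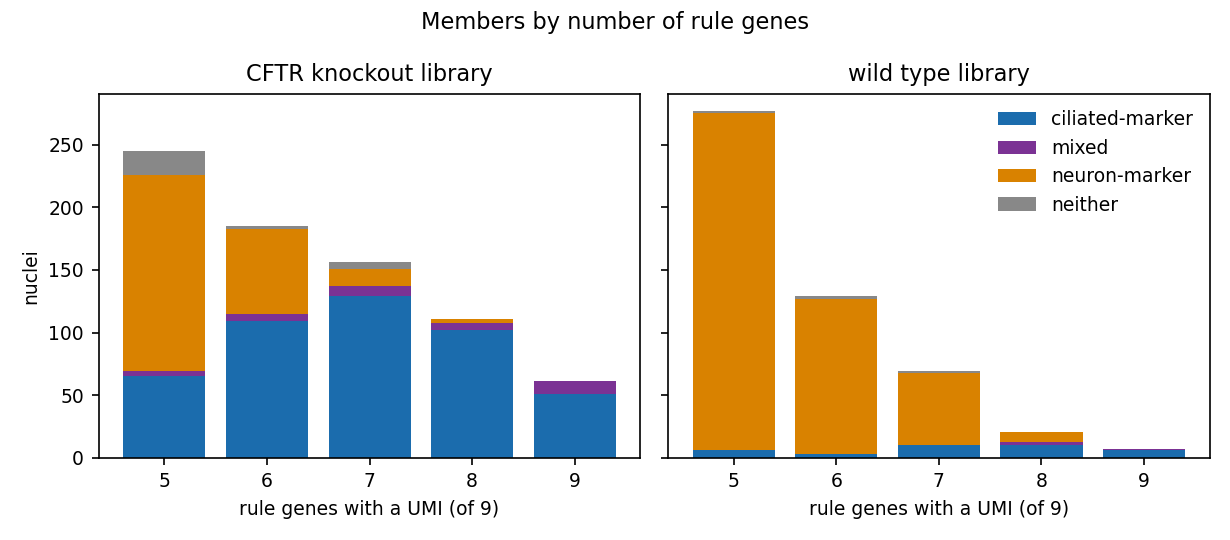
Number of nuclei (y axis) with UMIs of 5 to 9 of the rule genes (x axis), in the knockout library (left) and the wild type library (right), with colours for the classes of marker. Neuron-marker nuclei gather at 5 and 6 rule genes in both libraries, and none has all 9.

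The number of rule genes seen in a nucleus followed this split. Of the nuclei with all 9 rule genes, 61 of 61 in the knockout library and 7 of 7 in the wild type library had at least 2 UMIs of WDR49 and DTHD1. Just inside the threshold, at 5 rule genes, this held for 69 of 245 knockout and 6 of 277 wild type nuclei. Just outside it, at 4 rule genes, it held for 21 of 303 knockout and 1 of 321 wild type nuclei. Over the nuclei with 5 rule genes DNAH5 stood at 733 CPM in the knockout library and 299 CPM in the wild type library. Over those with 4 it stood at 393 CPM in the knockout library and 204 CPM in the wild type library. The threshold thus lies within a run of nuclei that carry few UMIs of these genes, most of them without WDR49 and DTHD1.

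Fewer nuclei met the rule once depth was made equal. Median depth was 4002 UMIs in the knockout and 4984 UMIs in the wild type ciliated-marker nuclei. It was 4726 UMIs in knockout and 5652 UMIs in wild type neuron-marker nuclei, against 2417 UMIs in knockout and 3013 UMIs in wild type nuclei that did not meet the rule. After every nucleus had been thinned to 1000 UMIs, 244 knockout nuclei (5.19%) and 34 wild type nuclei (0.785%) still had 5 rule genes. The mixed nuclei were deeper, at a median of 7589 UMIs in the knockout library and 16513.5 UMIs in the wild type one, and 15 of the 34 knockout ones were among the highest doublet scores (44.1%). In ciliated-marker nuclei that share was 8.11% in the knockout library and 11.4% in the wild type one, against 4.97% of knockout and 3.48% of wild type nuclei outside the rule. The part of doublets in these counts was not tested.

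A total of 107 cilium genes outside the rule took more of the UMIs in ciliated-marker than in neuron-marker nuclei, with overlap. They took a median of 3.82% of the UMIs of a knockout ciliated-marker nucleus, with 1.77 to 5.08% between the 5th and 95th percentile. In wild type ciliated-marker nuclei the median was 3.89% (2.07 to 5.61%), so that the libraries overlapped widely. Neuron-marker nuclei had a median of 1.55% in the knockout library (0.823 to 2.30%) and 1.58% in the wild type one (0.843 to 2.30%), and nuclei outside the rule 0.379% in the knockout library and 0.286% in the wild type one. By their medians the neuron-marker nuclei lay between the ciliated-marker nuclei and the rest in both libraries.

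**Figure D2:**
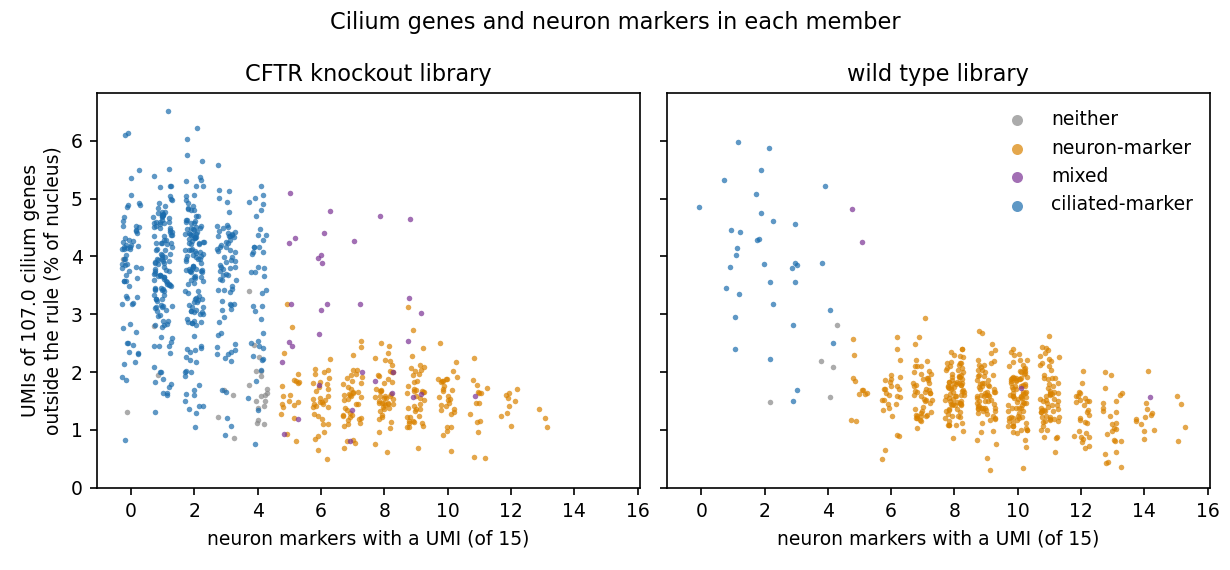
Each dot is a nucleus that met the rule, with the number of 15 neuron markers seen in it (x axis) and the share of its UMIs from 107 cilium genes outside the rule (y axis, %), in the knockout library (left) and the wild type library (right). Ciliated-marker nuclei have medians of 3.82% and 3.89%, neuron-marker nuclei 1.55% and 1.58%, and the wild type library holds few ciliated-marker nuclei.

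The name markers stood far above the rest in ciliated-marker nuclei of both libraries, which the choice of nuclei fixed. The 6 markers summed to 11295 CPM in knockout and 11957 CPM in wild type ciliated-marker nuclei. They summed to 1644 CPM in knockout and 1428 CPM in wild type neuron-marker nuclei, and to 526 CPM in knockout and 408 CPM in wild type nuclei outside the rule. At 1000 UMIs a nucleus, 433 of 456 knockout and 31 of 35 wild type ciliated-marker nuclei had UMIs of at least 3 of the 6. WDR49, a WD-repeat gene used as a ciliated marker, stood at 1771 CPM (1718 to 1826) in knockout and 1791 CPM (1617 to 1978) in wild type ciliated-marker nuclei. In neuron-marker nuclei WDR49 was at 1.48 CPM in the knockout library and 1.03 CPM in the wild type one. DTHD1, which encodes a death-domain protein, was at 1802 CPM in knockout and 1630 CPM in wild type ciliated-marker nuclei, against 10.4 CPM in knockout and 0.78 CPM in wild type neuron-marker nuclei. Both genes served to draw the classes, so their low levels in neuron-marker nuclei were also fixed by the choice of nuclei.

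Neuron markers were low in the ciliated-marker nuclei, and markers of other cells varied. Mature olfactory neuron markers summed to 255 CPM in knockout and 266 CPM in wild type ciliated-marker nuclei, against 1820 CPM in knockout and 1918 CPM in wild type neuron-marker nuclei. Immature neuron markers summed to 178 CPM in knockout and 174 CPM in wild type ciliated-marker nuclei, against 3398 CPM in knockout and 3292 CPM in wild type neuron-marker nuclei. EBF2, a transcription factor of the olfactory neuron lineage, was at 28.2 CPM in knockout and 9.18 CPM in wild type ciliated-marker nuclei, against 2114 CPM in knockout and 1782 CPM in wild type neuron-marker nuclei. Both neuron lists also served to draw the classes, and in nuclei outside the rule the mature list summed to 751 CPM in the knockout library and 859 CPM in the wild type one. Markers of secretory cells did differ between the libraries, at 1330 CPM in knockout and 395 CPM in wild type ciliated-marker nuclei. Of these sums, BPIFA1 alone made up 631 CPM in knockout and 36.7 CPM in wild type ones. SCGB3A1, SCGB1A1, SPDEF and PIGR were at 0 in the wild type ones, a class of only 35 nuclei. Secretory markers were at 1228 CPM in knockout and 250 CPM in wild type nuclei outside the rule. Gland markers summed to 107 CPM in knockout and 478 CPM in wild type ciliated-marker nuclei, where 1 wild type nucleus held 50 of the 51 UMIs of BPIFB6. Microvillar or ionocyte markers, with CFTR among them, summed to 65.7 CPM in knockout and 321 CPM in wild type ciliated-marker nuclei, against 46.3 CPM in knockout and 143 CPM in wild type nuclei outside the rule. Of the 321 CPM, CFTR alone made up 303 CPM. Sustentacular markers summed to 588 CPM in knockout and 744 CPM in wild type ciliated-marker nuclei, and basal markers to 440 CPM in knockout and 377 CPM in wild type ones, below the nuclei outside the rule in both libraries.

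The genes of the rule held very different parts of their range in the 2 classes. DNAH5, a heavy chain of the outer dynein arm, stood at 2792 CPM in knockout and 3141 CPM in wild type ciliated-marker nuclei, against 371 CPM in knockout and 258 CPM in wild type neuron-marker nuclei. CDHR3, a cadherin that serves as the receptor of rhinovirus C, stood at 149 CPM in knockout and 138 CPM in wild type ciliated-marker nuclei, against 11.1 CPM in knockout and 3.62 CPM in wild type neuron-marker nuclei. HYDIN, a protein of the central pair, differed less, with 1336 CPM in knockout and 1469 CPM in wild type ciliated-marker nuclei against 608 CPM in knockout and 656 CPM in wild type neuron-marker nuclei. RSPH1, of the radial spoke head, stood at 225 CPM in knockout and 280 CPM in wild type ciliated-marker nuclei against 139 CPM in knockout and 127 CPM in wild type neuron-marker nuclei. The levels of HYDIN and RSPH1 were thus closer between the classes than those of DNAH5 and CDHR3. Every nucleus of both classes was taken for having UMIs of these genes, so the levels only describe them.

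**Figure D3:**
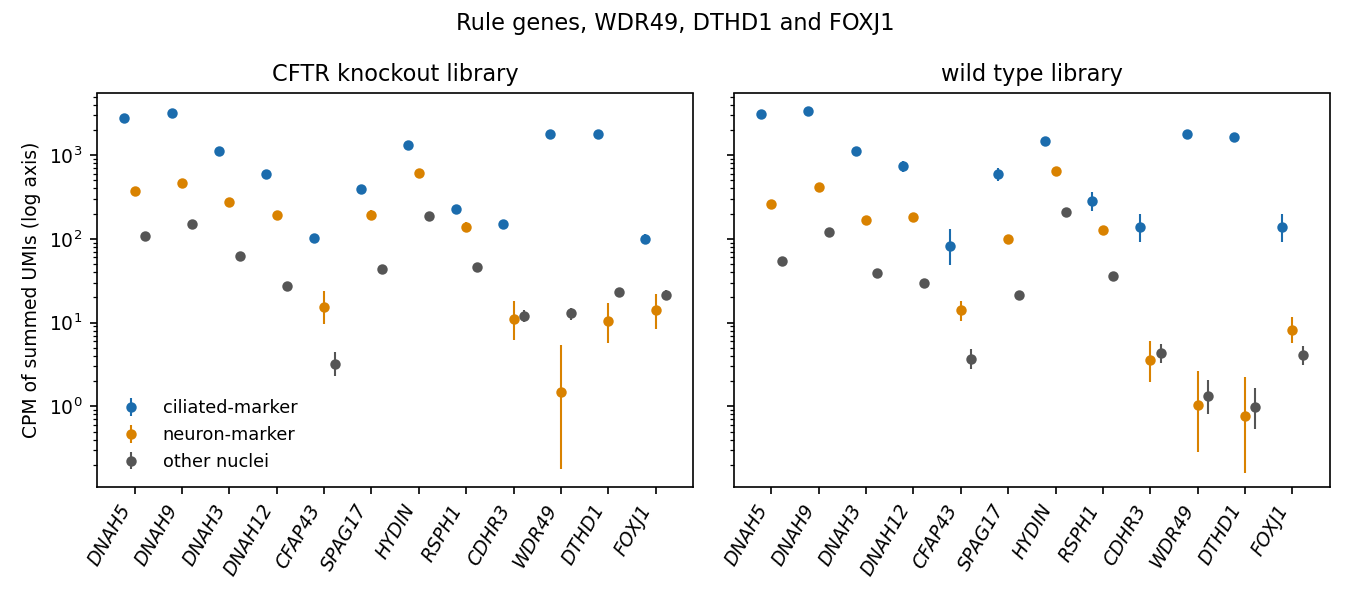
Level in CPM on a log axis (y axis) of the 9 rule genes, WDR49, DTHD1 and FOXJ1 (x axis), over ciliated-marker nuclei, neuron-marker nuclei and nuclei outside the rule, in the knockout library (left) and the wild type library (right), with 95% counting intervals. WDR49, which served to draw the classes, is near 1770 to 1790 CPM in ciliated-marker nuclei and near 1 CPM in neuron-marker nuclei. HYDIN and RSPH1 are closer together.

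Genes at least 4-fold higher than in nuclei outside the rule were counted among those at 50 CPM or more in both libraries. Over all nuclei that met the rule there were 26 of 3967 (0.655%), over ciliated-marker nuclei 313 of 3914 (8.00%), and over neuron-marker nuclei 6 of 3942 (0.152%). The rule fixed part of this, so the counts describe the classes. Fewer genes passed over all nuclei that met the rule than over ciliated-marker nuclei alone.

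The genes that led the ciliated-marker nuclei outside the rule were in part axonemal. SNTN, which encodes sentan of the ciliary tip, was at 474 CPM in knockout and 574 CPM in wild type ciliated-marker nuclei, against 11.1 CPM in knockout and 3.62 CPM in wild type neuron-marker nuclei. DRC7, of the complex that links neighbouring doublets, was at 198 CPM in knockout and 156 CPM in wild type ciliated-marker nuclei and below 9 CPM in neuron-marker nuclei of both libraries. DAW1, which takes part in outer arm assembly, was at 566 CPM in knockout and 450 CPM in wild type ciliated-marker nuclei. AK7, an adenylate kinase of cilia, was at 664 CPM in knockout and 583 CPM in wild type ones. CFAP221 of the central pair, DRC3 of the doublet link, CFAP44 of the inner arm tether and CCDC114 of the outer arm docking complex were also among the 25 leading genes. All of these were higher than in nuclei outside the rule in both libraries.

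Other leading genes have no known place in the axoneme or are known from other tissues. BTG4, known from oocytes as an adaptor of mRNA deadenylation, was at 832 CPM in knockout and 592 CPM in wild type ciliated-marker nuclei, and at 2.22 CPM in knockout and 0 CPM in wild type neuron-marker nuclei. IDO2, related to enzymes that degrade tryptophan, was at 580 CPM in knockout and 344 CPM in wild type ciliated-marker nuclei. SPATA18, which acts in the quality control of mitochondria, was at 640 CPM in knockout and 808 CPM in wild type ones. SERPINI2, a serpin, was at 136 CPM in knockout and 147 CPM in wild type ones. The uncharacterised KIAA2012 was at 1426 CPM in knockout and 1451 CPM in wild type ciliated-marker nuclei, with ANKFN1 close by at 1458 CPM in knockout and 1488 CPM in wild type ones. ECT2L stood at 1188 CPM in knockout and 1267 CPM in wild type ciliated-marker nuclei. LDLRAD1, ALS2CR12, FRMPD2, AADAC, NWD2, LRRC71, ARAP2, C11orf88 and PLEKHS1 completed the leading genes, with 53.5 to 1180 CPM in knockout and 68.9 to 877 CPM in wild type ciliated-marker nuclei.

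Lists of cilium genes were then compared between ciliated-marker and neuron-marker nuclei within each library, without the rule genes, WDR49 and DTHD1, for genes at 20 CPM or more in ciliated-marker nuclei. Over all genes the median log2 ratio was 0.39 in the knockout library and 0.24 in the wild type one, and 11.9% of the genes in the knockout library and 10.9% in the wild type one were at least 4-fold higher in ciliated-marker nuclei. The lists were put together with earlier results of these data known. Every cilium list had a median above that of all genes, and the size of the difference depended on the part of the cilium.

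In the outer arm and its docking complex, 3 of 7 genes in the knockout library and 4 of 7 in the wild type one were at least 4-fold higher in ciliated-marker nuclei, with median log2 ratios of 1.74 in the knockout library and 2.64 in the wild type one. DNAH11, a heavy chain of the outer arm, was at 1628 CPM in knockout and 1855 CPM in wild type ciliated-marker nuclei, against 102 CPM in knockout and 113 CPM in wild type neuron-marker nuclei. CCDC114 was at 423 CPM in knockout and 340 CPM in wild type ciliated-marker nuclei, against 14.8 CPM in knockout and 7.76 CPM in wild type neuron-marker nuclei. DNAL1, an outer arm light chain, differed little, with 166 CPM in knockout and 188 CPM in wild type ciliated-marker nuclei against 121 CPM in knockout and 95.1 CPM in wild type neuron-marker nuclei. DNAI1, an outer arm intermediate chain, was close to the limit of detection at 6.31 CPM in knockout and 4.59 CPM in wild type ciliated-marker nuclei.

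In the inner arms and the rulers that space them, 4 of 10 genes in the knockout library and 3 of 10 in the wild type one were at least 4-fold higher, with medians of 1.61 in the knockout library and 1.73 in the wild type one. DNAH10, an inner arm heavy chain, was at 557 CPM in knockout and 652 CPM in wild type ciliated-marker nuclei, against 92.5 CPM in knockout and 71.1 CPM in wild type neuron-marker nuclei. CCDC39, a ruler protein, was instead at 358 CPM in knockout and 450 CPM in wild type ciliated-marker nuclei, against 477 CPM in knockout and 375 CPM in wild type neuron-marker nuclei. Among the factors that assemble dynein arms in the cytoplasm the medians were 1.40 in the knockout library and 2.19 in the wild type one. SPAG1 was at 307 CPM in knockout and 303 CPM in wild type ciliated-marker nuclei, against 53.3 CPM in knockout and 45.3 CPM in wild type neuron-marker nuclei. DNAAF4 went the other way, with 228 CPM in knockout and 225 CPM in wild type ciliated-marker nuclei against 579 CPM in knockout and 484 CPM in wild type neuron-marker nuclei.

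The nexin-dynein regulatory complex, which links neighbouring doublets, had medians of 2.02 in the knockout library and 1.85 in the wild type one, and 5 of 9 genes in the knockout library and 4 of 9 in the wild type one were at least 4-fold higher. IQCG, a subunit of that complex, was at 276 CPM in knockout and 243 CPM in wild type ciliated-marker nuclei, against 22.9 CPM in knockout and 18.6 CPM in wild type neuron-marker nuclei. Radial spoke genes differed less, with medians of 0.71 in the knockout library and 1.22 in the wild type one and 0 of 11 in the knockout library and 1 of 11 in the wild type one at least 4-fold higher. RSPH4A of the spoke head was at 156 CPM in knockout and 197 CPM in wild type ciliated-marker nuclei, against 74.0 CPM in knockout and 69.5 CPM in wild type neuron-marker nuclei.

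Central pair genes had medians of 1.25 in the knockout library and 1.50 in the wild type one, and were uneven. CFAP46 was at 731 CPM in knockout and 712 CPM in wild type ciliated-marker nuclei, against 107 CPM in knockout and 105 CPM in wild type neuron-marker nuclei. SPEF2, also of the central pair, was at 741 CPM in knockout and 790 CPM in wild type ciliated-marker nuclei, against 870 CPM in knockout and 701 CPM in wild type neuron-marker nuclei. Proteins inside the doublet microtubules had medians of 1.29 in the knockout library and 1.60 in the wild type one. CFAP45 was at 445 CPM in knockout and 514 CPM in wild type ciliated-marker nuclei, against 68.8 CPM in knockout and 51.2 CPM in wild type neuron-marker nuclei.

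Genes that all ciliated cells use differed least. For intraflagellar transport, which carries cargo along the axoneme, the medians were 0.48 in the knockout library and 0.72 in the wild type one, and no gene was 4-fold higher (0 of 26 in the knockout library and 0 of 25 in the wild type one). IFT88 was at 882 CPM in knockout and 813 CPM in wild type ciliated-marker nuclei, against 292 CPM in knockout and 233 CPM in wild type neuron-marker nuclei. The BBSome, an adaptor of that transport, had medians of 0.46 in the knockout library and 0.47 in the wild type one. Its subunit TTC8 was lower in ciliated-marker nuclei, at 47.6 CPM in knockout and 45.9 CPM in wild type ones, against 183 CPM in knockout and 197 CPM in wild type neuron-marker nuclei. Basal body and transition zone genes had medians of 0.45 in the knockout library and 0.82 in the wild type one.

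**Figure D4:**
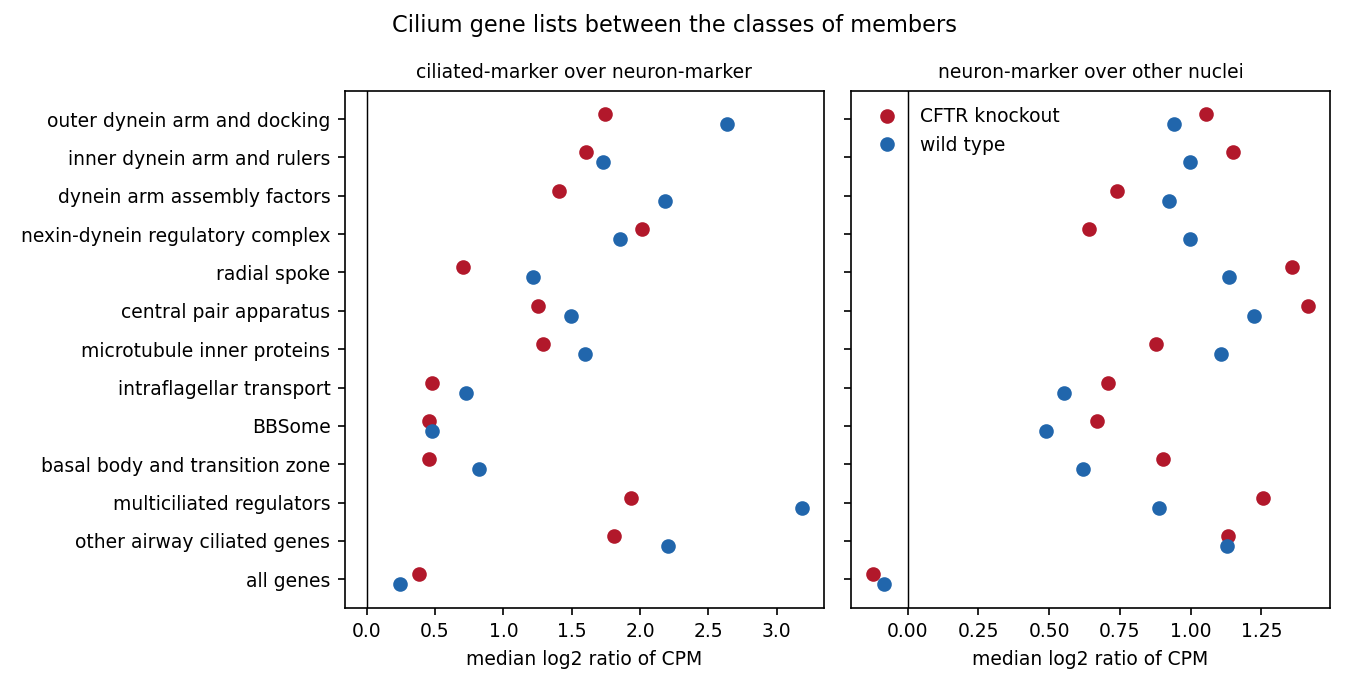
Median log2 ratio of CPM (x axis) for each list of cilium genes (y axis), for ciliated-marker over neuron-marker nuclei and for neuron-marker nuclei over nuclei outside the rule, in the knockout and the wild type library, with all genes for scale. Medians of ciliated-marker over neuron-marker nuclei reach 1.74 and 2.64 for the outer arm and are 0.48 and 0.72 for intraflagellar transport.

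The neuron-marker nuclei held cilium transcripts above the level of nuclei outside the rule, which the rule fixed for its own genes. All of them had at least 5 neuron markers, against 28.1% of knockout and 39.4% of wild type nuclei outside the rule. The part of this unlike makeup in the ratios was not tested. Without the rule genes, the median log2 ratio over nuclei outside the rule was 1.41 in the knockout library and 1.22 in the wild type one for the central pair. It was 1.36 in the knockout library and 1.14 in the wild type one for radial spokes, against -0.12 in the knockout library and -0.08 in the wild type one over all genes. Genes at the head of these nuclei were in part neuronal and in part ciliary. GABBR2, a subunit of the GABA-B receptor, was at 581 CPM in knockout and 429 CPM in wild type neuron-marker nuclei, against 50 UMIs in all knockout and 0 UMIs in all wild type ciliated-marker nuclei. STXBP5L, a syntaxin-binding protein, was at 1863 CPM in knockout and 1350 CPM in wild type neuron-marker nuclei, against 49.7 CPM in knockout and 13.8 CPM in wild type ciliated-marker nuclei. DCDC2, a doublecortin-domain protein found in primary cilia, was at 783 CPM in knockout and 709 CPM in wild type neuron-marker nuclei, against 221 CPM in knockout and 303 CPM in wild type ciliated-marker nuclei.

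Ciliated-marker nuclei were 9.69% of knockout nuclei with at least 1000 UMIs (8.86 to 10.6%) and 0.809% of wild type ones (0.564 to 1.12%), a log2 ratio of 3.58 (3.09 to 4.08). At an equal depth of 1000 UMIs, nuclei with at least 2 UMIs of WDR49 and DTHD1 were 9.37% in the knockout library (8.55 to 10.2%) and 0.762% in the wild type library (0.525 to 1.07%). Over all nuclei that met the rule the shares were closer, at 16.1% in the knockout library (15.1 to 17.2%) and 11.6% in the wild type library (10.7 to 12.6%). Neuron-marker nuclei went the other way, at 5.14% in the knockout library (4.53 to 5.81%) and 10.6% in the wild type library (9.70 to 11.6%). How much respiratory epithelium each dissection took in is not given in the labels, and its part in these shares was not tested.

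CFTR, the targeted gene, was lower in the knockout library in every class but was not at 0. In ciliated-marker nuclei it stood at 30.7 CPM (24.1 to 38.6) in the knockout library and 303 CPM (234 to 386) in the wild type one, at a log2 ratio of -3.30 (-3.80 to -2.80). The knockout value came from 73 UMIs in 63 of 456 nuclei, with at most 3 UMIs in a nucleus. The wild type value came from 66 UMIs in 22 of 35 nuclei, of which 1 nucleus held 21, and was 220 CPM without that nucleus, which is among those with MCIDAS described below. At 1000 UMIs, 3.07% of knockout and 22.9% of wild type ciliated-marker nuclei had a CFTR UMI, against 0.413% of knockout and 2.18% of wild type neuron-marker nuclei. In nuclei outside the rule CFTR was at 9.88 CPM in the knockout library and 100 CPM in the wild type one, at a log2 ratio of -3.34. No source used here says which stretch of CFTR was deleted or counted, so the reads left in the knockout library are no check of the deletion itself. Over all nuclei that met the rule the log2 ratio was only -1.06, where the classes entered in unequal numbers.

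Between the libraries, ciliated-marker nuclei were compared gene by gene among those with a mean of at least 50 CPM. At least 2-fold higher in the knockout were 294 of 4491 genes (6.55%), and 106 were at least 2-fold lower (2.36%). With scaling by TMM the split was 189 higher and 152 lower, so the balance of directions moved with the scaling. The median log2 ratio over 7691 genes at 20 CPM or more was 0.21, and 0.072 with TMM, and lists are to be read against it. Over all nuclei that met the rule 567 of 4665 genes were higher (12.2%) and 345 lower (7.40%), or 460 and 477 with TMM. The classes entered these counts in unequal numbers. DTHD1 was at 1141 CPM in knockout and 103 CPM in wild type nuclei that met the rule, a log2 ratio of 3.47, and at a log2 ratio of 0.14 in ciliated-marker nuclei alone.

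The axoneme differed little between the libraries once only ciliated-marker nuclei were compared. At 20 CPM or more, 4909 of all 7691 genes had a log2 ratio above 0. At least 2-fold higher in the knockout were 11.4% of all genes, and 4.21% were at least 2-fold lower. Outer arm genes had a median log2 ratio of -0.19, with 1 of 9 above 0, none at least 2-fold higher and 1 at least 2-fold lower. The lower gene was CCDC151, of the docking complex, at 29.0 CPM in knockout and 96.4 CPM in wild type ciliated-marker nuclei. Inner arm genes had a median of -0.17 over 12 genes, none of them past 2-fold. Central pair genes had a median of -0.092 over 13 genes and summed to 8535 CPM in knockout and 8995 CPM in wild type ciliated-marker nuclei. Intraflagellar transport genes had a median of -0.039, with 12 of 26 above 0 and 1 past 2-fold, namely WDR19 of the retrograde complex at a log2 ratio of 1.40. All these medians lay below the 0.21 of all genes. TPPP3, a tubulin-binding protein, was the only one of 25 other airway ciliated genes past 2-fold, at 125 CPM in knockout and 317 CPM in wild type ciliated-marker nuclei.

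Regulators of the multiciliated programme were lower in knockout ciliated-marker nuclei, with a median log2 ratio of -0.78. Of 8 measured, 7 were below 0 and 3 at least 2-fold lower. Among all 7691 genes, 2782 were below 0 and 4.21% at least 2-fold lower. The regulators summed to 2824 CPM in knockout and 4789 CPM in wild type nuclei of the class. RFX3, a factor that drives ciliary genes, was at 1736 CPM in knockout and 2659 CPM in wild type ciliated-marker nuclei, a log2 ratio of -0.62 (-0.74 to -0.49). RFX2, of the same family, was at 745 CPM in knockout and 1433 CPM in wild type ones, a log2 ratio of -0.94 (-1.12 to -0.77). MYB, which acts early in the programme, was at 88.4 CPM in knockout and 202 CPM in wild type ones, a log2 ratio of -1.19 (-1.67 to -0.69). Without the nuclei with at least 2 MCIDAS UMIs, described below, MYB was at 85.4 CPM in knockout and 147 CPM in wild type ones. FOXJ1, the factor most tied to motile cilia, was at 99.3 CPM in knockout and 138 CPM in wild type ones, and its log2 ratio of -0.47 had an interval that held 0 (-1.02 to 0.13). FOXJ1 was seen in 165 of 456 knockout and 16 of 35 wild type nuclei of the class.

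MCIDAS, which starts the programme, rested on few nuclei. It was at 22.3 CPM in knockout and 202 CPM in wild type ciliated-marker nuclei, from 53 UMIs in 9 knockout nuclei and 44 UMIs in 3 wild type nuclei. Nuclei with at least 2 MCIDAS UMIs numbered 7 in the knockout class, with 2 to 12 UMIs each, and 3 in the wild type class, with 9 to 18 UMIs each. Others met the rule outside this class. In the knockout library 3 had reached neither threshold (40 MCIDAS UMIs), 1 was mixed (12 UMIs) and 1 was a neuron-marker nucleus (7 UMIs). In the wild type library 1 had reached neither (22 UMIs). Over all nuclei that met the rule MCIDAS was at 26.5 CPM in knockout and 16.2 CPM in wild type ones, a log2 ratio of 0.71. The classes entered that ratio in unequal numbers. In those 7 knockout nuclei DEUP1, the scaffold on which centrioles are multiplied, was at 878 CPM, against 251 CPM in the remaining 449. Of the 71 DEUP1 UMIs in the 7 knockout nuclei 31 lay in 1 nucleus, and each had at least 1. In the 3 wild type nuclei DEUP1 was at 1543 CPM, with 8 to 22 UMIs each, against 383 CPM in the remaining 32. The same nuclei had more of STIL, which is needed to build centrioles, at 593 CPM in the 7 knockout and 735 CPM in the 3 wild type nuclei, against 50.5 CPM in the remaining knockout and 15.7 CPM in the remaining wild type ones. CCNO, a cyclin-like factor of centriole amplification, was at 148 CPM in the 7 knockout and 404 CPM in the 3 wild type nuclei, against 2.18 CPM in the remaining knockout and 0 CPM in the remaining wild type ones. In the 7 knockout nuclei 1 nucleus held 22 of 48 STIL UMIs, and CCNO was seen in 5 of them. The MCIDAS nuclei were chosen on MCIDAS and were deeper, with a median of 9704 UMIs in the 7 knockout and 7370 UMIs in the 3 wild type nuclei, against 3964 UMIs in the remaining knockout and 4855.5 UMIs in the remaining wild type ones. The part of depth in these values was not tested.

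DNAH5 and WDR49 were lower in those 7 knockout and 3 wild type nuclei, while HYDIN differed less and in opposite directions. DNAH5 was at 1335 CPM in the 7 knockout nuclei, 1 of which held 41 of the 108 UMIs, and at 2843 CPM in the remaining 449. In the 3 wild type nuclei DNAH5 was at 441 CPM, against 3526 CPM in the remaining 32. WDR49 was at 1014 CPM in the 7 knockout nuclei and 147 CPM in the 3 wild type nuclei, against 1798 CPM in the remaining knockout and 2026 CPM in the remaining wild type ones. HYDIN was at 1669 CPM in the 7 knockout nuclei against 1325 CPM in the remaining knockout ones. In the 3 wild type nuclei it was at 1286 CPM, from 35 UMIs, against 1496 CPM in the remaining wild type ones. No interval was computed for these values. SPAG17 was at 383 CPM in the 7 knockout nuclei and 397 CPM in the remaining knockout ones. Summed over these few nuclei, DEUP1, STIL and CCNO were thus higher and DNAH5 lower than in the remaining nuclei of the class in both libraries.

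Centriole amplification genes as a list had a median log2 ratio of -0.75 in ciliated-marker nuclei, with 5 of 7 below 0 and 2 at least 2-fold lower, beside 2782 of 7691 genes below 0 and 4.21% at least 2-fold lower. DEUP1 was at 272 CPM in knockout and 528 CPM in wild type nuclei of the class, a log2 ratio of -0.96 (-1.24 to -0.66). Nuclei with at least 2 of these genes at 1000 UMIs were 22 of 456 in the knockout (4.82%, 3.05 to 7.21%) and 4 of 35 in the wild type class (11.4%, 3.20 to 26.7%). In nuclei outside the rule this share was 3.39% in the knockout library and 4.36% in the wild type one. In neuron-marker nuclei it was 2.89% in the knockout library and 4.14% in the wild type one. Without thinning it was 43.9% of knockout and 45.7% of wild type ciliated-marker nuclei. Without the nuclei with MCIDAS the list median was -0.24. The log2 ratio of the ciliated-marker shares at 1000 UMIs was then 0.51 instead of -1.24, with 20 knockout nuclei and 1 wild type nucleus left in the count. That step left out the 7 knockout and the 3 wild type nuclei together.

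Interferon response genes were higher in knockout ciliated-marker nuclei. Of 17 measured, 16 were above 0 and 13 at least 2-fold higher, with a median log2 ratio of 1.71. Among all 7691 genes, 4909 were above 0 and 11.4% at least 2-fold higher. The interferon list summed to 1580 CPM in knockout and 519 CPM in wild type nuclei of the class. MX2, an antiviral GTPase, was at 130 CPM in knockout and 13.8 CPM in wild type ciliated-marker nuclei, a log2 ratio of 3.23 (1.67 to 5.52). EIF2AK2, a kinase activated by double-stranded RNA, was at 160 CPM in knockout and 59.7 CPM in wild type ones, a log2 ratio of 1.42 (0.63 to 2.34). OAS2, which makes the signal that activates RNase L, was at 93.4 CPM in knockout and 0 CPM in wild type ones, at least 6.78-fold higher against a floor of 3 UMIs over the class. IFI6 did not differ beyond counting error, at 97.7 CPM in knockout and 87.2 CPM in wild type ones. IRF7 was the one gene below 0, at 28.6 CPM in knockout and 50.5 CPM in wild type ones.

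The interferon genes were also higher elsewhere in the knockout library. In nuclei outside the rule the median log2 ratio was 0.78, with 15 of 15 above 0 and 5 at least 2-fold higher. Of all 8217 genes measured there, 5223 were above 0 and 1.48% at least 2-fold higher. The interferon list summed to 991 CPM in the knockout library and 563 CPM in the wild type one. At 1000 UMIs, 34.9% of knockout ciliated-marker nuclei (30.5 to 39.4%) and 2 of 35 wild type ones (5.71%, 0.700 to 19.2%) had at least 2 of these genes. In nuclei outside the rule this was 18.1% in the knockout library and 9.88% in the wild type one, and in neuron-marker nuclei 5.37% in the knockout library and 3.27% in the wild type one. At least 3 of the genes were seen in 14.9% of knockout ciliated-marker nuclei and in 0 of 35 wild type ones (upper bound 10.0%). For at least 2 genes, both neuron-marker shares lay under those of the ciliated-marker nuclei in the same library. In the wild type library the intervals overlapped, at 1.84 to 5.33% in neuron-marker and 0.700 to 19.2% in ciliated-marker nuclei. At least 3 genes were seen in 1.24% of knockout and 0.436% of wild type neuron-marker nuclei.

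**Figure D5:**
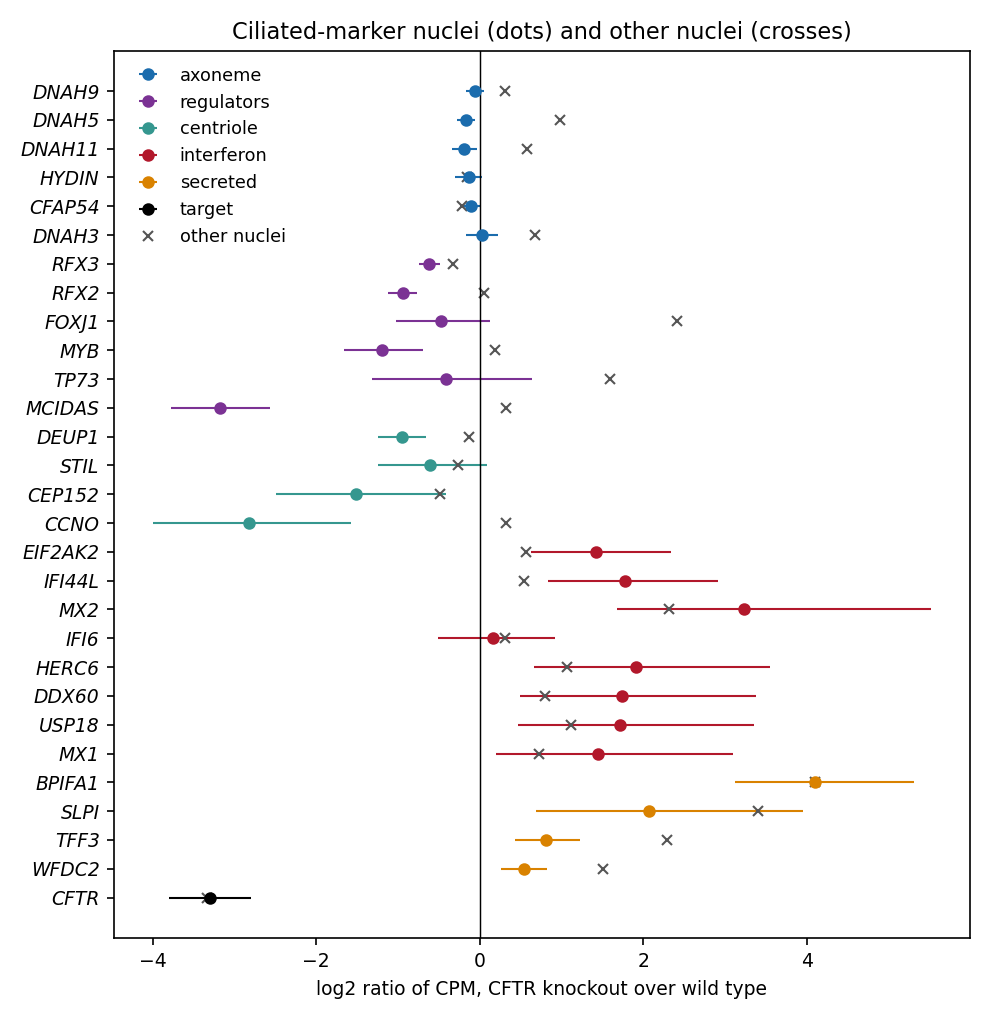
Log2 ratio of CPM, knockout over wild type (x axis), of genes of the axoneme, regulators, centriole amplification, interferon response, secreted proteins and CFTR (y axis), in ciliated-marker nuclei (dots with 95% counting intervals) and in nuclei outside the rule (crosses). CFTR is near -3.3 in both, MX2 is at 3.23 in ciliated-marker nuclei, and DNAH5, DNAH9 and HYDIN are close to 0.

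Genes of secreted proteins were higher in the knockout in every class. Of 7 measured in ciliated-marker nuclei, 6 were above 0 and 3 at least 2-fold higher, with a median log2 ratio of 0.93. Among all 7691 genes, 4909 were above 0 and 11.4% at least 2-fold higher. BPIFA1, an abundant secreted protein of the upper airway, was at 631 CPM in knockout and 36.7 CPM in wild type ciliated-marker nuclei, a log2 ratio of 4.10 (3.12 to 5.32). It was at 700 CPM in knockout and 40.7 CPM in wild type nuclei outside the rule, again a log2 ratio of 4.10, and at 301 CPM in knockout and 4.65 CPM in wild type neuron-marker nuclei. At 1000 UMIs, 36.8% of knockout ciliated-marker nuclei had a BPIFA1 UMI, against 23.1% of neuron-marker nuclei and 43.1% of nuclei outside the rule in that library. The share in ciliated-marker nuclei thus lay between those of the other nuclei, and the part of free RNA in it was not tested. SLPI, a protease inhibitor, was at 77.0 CPM in knockout and 18.4 CPM in wild type ciliated-marker nuclei, a log2 ratio of 2.07 (0.69 to 3.96). TFF3, a mucosal trefoil peptide, was at 469 CPM in knockout and 266 CPM in wild type ones, a log2 ratio of 0.82 (0.43 to 1.22).

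Among the 12 genes highest in knockout ciliated-marker nuclei, BPIFA1 and MX2 have been described. MMAB, an enzyme of cobalamin metabolism, was at 92.2 CPM in knockout and 9.18 CPM in wild type nuclei of the class, a log2 ratio of 3.33 (1.46 to 6.38), and at 0.67 in nuclei outside the rule. PNPT1, a ribonuclease of mitochondria, was at 97.7 CPM in knockout and 13.8 CPM in wild type nuclei of the class, a log2 ratio of 2.83 (1.26 to 5.11), and at 0.22 outside the rule. FOXP2, a transcription factor, was at 132 CPM in knockout and 27.6 CPM in wild type ones, a log2 ratio of 2.26 (1.12 to 3.72). Each of these wild type values rests on 2 to 6 UMIs, which the width of the intervals shows. PREX2, TPD52L1, SORCS2, NHS and ERGIC1 had log2 ratios of 2.16 to 2.56 from 4 or 5 wild type UMIs. MCTP1, at a log2 ratio of 3.07, owed 192 of its 275 knockout UMIs to 1 nucleus.

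Of the 12 genes lowest in knockout ciliated-marker nuclei, 6 were transcripts of the mitochondrial genome. ND3, a subunit of respiratory complex I, was at 236 CPM in knockout and 1653 CPM in wild type nuclei of the class, a log2 ratio of -2.81 (-3.00 to -2.61). ATP6, a subunit of ATP synthase, was at 2388 CPM in knockout and 13669 CPM in wild type ones, a log2 ratio of -2.52. Both were also lower in knockout nuclei outside the rule, with log2 ratios of -2.08 for ND3 and -1.48 for ATP6. Mitochondrial transcripts took 2.13% of the UMIs of knockout and 9.93% of those of wild type ciliated-marker nuclei, against 1.07% in knockout and 2.71% in wild type nuclei outside the rule. These transcripts are made outside the nucleus, and their part in the other differences was not tested. Of the rest, ZEB2, BPIFB6, BPIFB4 and FN1 had most of their wild type UMIs in 1 nucleus. The top nucleus of each gene held 24 of 33 UMIs of ZEB2, a transcription factor, 50 of 51 of BPIFB6 and 50 of 50 of BPIFB4, both of the BPI fold family, and 15 of 21 of FN1, which encodes fibronectin. Without the top nucleus in each library, BPIFB6 had a log2 ratio of 2.47 that rested on 1 wild type UMI. BPIFB4 had 0 wild type UMIs left, and its 1.11 was set by the floor of 3 UMIs. No interval was computed for these values, so they give no firm direction. ZEB2 stayed lower at -2.06, from 9 wild type UMIs, and FN1 at -0.84, from 6.

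Other lists moved little or unevenly in ciliated-marker nuclei. Ion and fluid transport genes had a median log2 ratio of -0.0021 over 11 genes. CLIC6, a chloride intracellular channel protein, was at 500.0 CPM in knockout and 294 CPM in wild type nuclei of the class, a log2 ratio of 0.77 (0.40 to 1.15). ATP1B1, a subunit of the sodium pump, was at 344 CPM in both libraries. Cell cycle genes had a median of -0.48 over 10 genes. KIF23, a kinesin of cell division, was at 191 CPM in knockout and 280 CPM in wild type ciliated-marker nuclei, against 30.2 CPM in knockout and 32.6 CPM in wild type nuclei outside the rule. TOP2A, a topoisomerase of dividing cells, was at 12.6 CPM in knockout and 9.18 CPM in wild type ciliated-marker nuclei, below its 31.8 CPM in knockout and 34.9 CPM in wild type nuclei outside the rule. KIF23 was thus above, and TOP2A below, the level outside the rule. Stress genes had a median of 0.26 over 12 genes, and HSPA8, a heat shock chaperone, was at 79.1 CPM in knockout and 303 CPM in wild type nuclei of the class, a log2 ratio of -1.94 (-2.35 to -1.51). CASP8, an initiator caspase, was at 165 CPM in knockout and 91.8 CPM in wild type ciliated-marker nuclei, against 18.9 CPM in knockout and 10.9 CPM in wild type nuclei outside the rule. Notch and Wnt genes had a median of 0.32 over 16 genes.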

How the data were processed

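The deposited values were UMI counts per gene and nucleus, raw whole numbers in 1 table per library, and no barcode held fewer than 500 UMIs. Per the submitters' processing notes, Cell Ranger, Seurat 4.0 and R 4.0.2 were used; aligner, genome build and annotation: not given in the sources used here. Of 25880 genes, 8256 had only an Ensembl identifier, and 1029 of these were named from a table of gene names, DNAH5, DNAH12, CFAP43 and CDHR3 among them. Older symbols were kept where the tables used them. Groups came from the genotype label.

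UMIs were summed over nuclei of each class and library. CPM received exact Poisson intervals, shares exact Clopper-Pearson intervals, and ratios exact conditional binomial intervals (95%, scipy 1.17.1, numpy 2.4.6, pandas 2.3.3, Python 3.11.15); they cover counting error only, and no p-value was computed. A gene at 0 was set at a floor of 3 UMIs over the class, also in list medians. Shares of 0 carry the upper bound of the exact interval. Thinning drew 1000 UMIs from each nucleus. The calculations were tested on simulated data.

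No nucleus was removed as a doublet. Scrublet (scanpy 1.11.5) called 1 nucleus per library by its own threshold and had not worked, so the highest scores at 0.8% per 1000 nuclei were marked and left out as an alternative. The libraries shared 8 barcodes, 4 nuclei that met the rule carried 1 of them, and none met it in both libraries. Alternatives were other thresholds of the rule, thinning, TMM (edgeR 4.0.16 in R 4.3.3), median-of-ratios scaling, other CPM minimums and leaving out doublet scores.

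The members and gene lists were chosen with earlier results of these data known, and 342 of 376 list genes were matched. The genes named were the rule genes and name markers, up to 5 members of each list with the highest CPM or all of lists of 12 or fewer, the 25 leading genes, the 12 highest and 12 lowest between libraries, CFTR and FOXJ1. Further list members, and genes at the head of neuron-marker nuclei, were named after their values were seen. The classes of nuclei were drawn after the data were seen. Values of 2 genes that the rule would name are not reported here, but they count in list medians.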

Additional observations from a re-analysis of the deposited data

Results flagged for a closer look

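Nuclei under 1000 UMIs were outside the rule and entered no comparison. Among 1349 such nuclei of the knockout library, 18 had at least 2 UMIs of WDR49 and DTHD1 (1.33%, 0.793 to 2.10%), against 0 of 386 in the wild type library (upper bound 0.951%). They were singled out because the signal lies in data that the comparisons do not use. The intervals overlap, which is no test of a difference between the libraries, and no such test was run.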

How the results depend on the processing

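Limits: 35 wild type ciliated-marker nuclei limit the precision of ratios within that class, and 1 library per genotype gives no replicate error. No paired analysis was possible because each genotype has 1 library and no result comes from a test.

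Over all nuclei that met the rule, the log2 ratio of shares was 0.47, and it was 0.24 with 4 rule genes, 1.06 with 6, 2.72 after thinning and 3.58 for ciliated-marker nuclei alone. Genes at least 2-fold higher were 567, and 988 at a minimum of 20 CPM, 3416 with no minimum and 294 in ciliated-marker nuclei. Genes at least 2-fold lower were 345, and 163 with 4 rule genes, 551 with 6, 532 at 20 CPM, 2497 with no minimum and 106 in ciliated-marker nuclei. CFTR was at -1.06, and at -2.49 after thinning and -3.30 in ciliated-marker nuclei. Genes at least 4-fold higher than outside the rule were 26, and 233 after thinning, 40 at 20 CPM, 105 with no minimum, 150 without nuclei of 2 to 4 rule genes in the comparison and 313 in ciliated-marker nuclei. The share with centriole amplification genes had a log2 ratio of -0.22, and -1.24 in ciliated-marker nuclei; after thinning before the rule it gave no value. List medians above 0 were 18 of 19, and 6 in ciliated-marker nuclei. There the medians turned negative for the outer arm (-0.19), inner arm (-0.17), radial spoke (-0.25), central pair (-0.092), microtubule inner proteins (-0.052), BBSome (-0.013), basal body (-0.079), regulators (-0.78), other airway ciliated genes (-0.027), intraflagellar transport (-0.039), centriole amplification (-0.75) and cell cycle (-0.48). After thinning they turned for the radial spoke (-0.057), central pair (-0.010) and regulators (-0.24). The change in class makeup is built into the ciliated-marker values; for the others the cause was not tested.

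In ciliated-marker nuclei the log2 ratio of shares ran between 3.44 and 3.71 over the alternatives. Genes at least 2-fold higher were 294, and 495 after thinning, 189 with TMM, 188 with median-of-ratios scaling, 878 at 20 CPM and 1745 with no minimum. Genes at least 2-fold lower were 106, and 163 after thinning, 324 at 20 CPM, 5559 with no minimum and 187 with mixed nuclei kept. CFTR was at -2.61 after thinning, genes 4-fold higher were 564 with no minimum, and the centriole share was 0.51 without MCIDAS nuclei. List medians above 0 were 6, and 10 after thinning or with mixed nuclei kept. The centriole amplification median was 0.52 after thinning. Of 80 values under alternatives, 66 stayed near the value given. The interferon median ran between 1.10 and 1.83 and that of the regulators between -0.92 and -0.59.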
